A study of Mus musculus with 42 samples.

Results

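The transcripts of DNA replication genes were followed across sorted and unsorted cells of the mouse stomach and intestine. The list of these genes was chosen with earlier results of these data known. It names 47 genes by symbol, from origin recognition to nucleotide supply, and its rule uses their names and not how they differed between samples. Of these, 46 were measured among 22180 genes, each by its brightest probe set that carries a single gene symbol. Rfc4, a clamp loader subunit, lies on a probe set shared with Eif4a2 and was not analysed here. Values are log2 intensities of Affymetrix arrays, so a difference of 1 is a 2-fold change. Levels are compared between samples for the same gene and never between genes.

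The 42 samples came from untreated adult mice of at least 7 to 8 weeks, not selected for sex, and fall into 15 groups. In the Lgr5-EGFP-IRES-CreERT2 line (IRES), green fluorescence is driven from the Lgr5 gene, a Wnt target that marks stem cells. Its pylorus, the outlet of the stomach, gave 4 brightly fluorescent (Lgr5Hi), 4 dim (Lgr5Lo) and 2 whole samples. Its small intestine gave 2 Lgr5Hi, 2 Lgr5Lo, 2 crypt and 1 whole sample, and its colon 3 Lgr5Hi, 3 Lgr5Lo and 2 whole samples. The Lgr5-EGFP-DTR line (DTR), in which a diphtheria toxin receptor is also under Lgr5 control and no toxin was given, supplied 3 Lgr5Hi, 3 Lgr5Lo and 3 non-fluorescent (Lgr5Neg) samples of pylorus. Wildtype (WT) pylorus, stained for the water channel protein Aqp5, gave 4 Aqp5Pos and 4 Aqp5Neg samples. The labels call the samples biological replicates and do not say how many animals went into each.

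Before a cell can copy its genome, the origin recognition complex, Cdc6 and Cdt1 load the MCM2 to MCM7 ring onto DNA, a step called licensing. Cdc45 and the GINS complex turn the ring into a moving helicase, polymerase alpha with primase starts each strand, and polymerases delta and epsilon extend it on the sliding clamp Pcna. Most of these genes are transcribed in late G1 and S phase under E2F factors, so their RNA is known as a sign of cycling cells. In the intestine Lgr5-positive crypt base cells are known to divide often, whereas stem cells at the base of pyloric glands are described as dividing less often than the cells above them.

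The gates were as labelled for the sort marker: Lgr5 differed by 4.13 between DTR Lgr5Hi and Lgr5Neg cells by 2.02 between IRES pyloric Lgr5Hi and Lgr5Lo cells and by 1.90 in the colon, which was not called (adjusted p = 0.217). Some arrays went against their labels. The whole colon array numbered 1 was high in gastric markers, with a mean of 12.85 over 5 surface pit cell markers against 4.20 on the other whole colon array. The crypt arrays of small intestine are named so by title, while another field calls them whole. They had means of 11.63 and 11.68 over 5 enterocyte markers, above the 10.31 of whole small intestine. Their mean Lgr5 level was 4.93, against 8.34 in Lgr5Hi cells and 7.09 on the 1 array titled whole small intestine. Whether the crypt and whole labels were exchanged was not tested. The whole colon group entered no comparison, and leaving out its first array moved no count of calls among the 46 genes by over 1.5 times. Over all genes it moved the calls from 330 to 518 in the IRES pyloric gates, from 41 to 69 in the small intestinal gates, and from 50 to 92 for the difference of these steps between pylorus and colon. In bulk samples, fewer cycling cells and less replication RNA per cell cannot be told apart.

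In the pylorus the most strongly Lgr5-positive cells held the least replication RNA. Averaged over the 46 genes, the DTR Lgr5Hi samples had log2 levels of 5.52, 6.19 and 6.02, the Lgr5Lo samples 6.61, 6.86 and 6.95, and the Lgr5Neg samples 7.00, 7.29 and 7.05. Every Lgr5Hi sample lay below every Lgr5Lo sample, and every Lgr5Lo sample below every Lgr5Neg sample. Between Lgr5Hi and Lgr5Neg cells 41 of 46 genes were lower at an adjusted p under 0.05 and 0 were higher, where 9.48% of all genes tested were lower and 8.84% higher. The median log2 difference was -1.24, against 0.02 over all genes, and 29 of the called genes differed at least 2-fold. In 44 genes all 3 Lgr5Hi samples lay below all 3 Lgr5Neg samples, a separation that 16.1% of all genes showed. Leaving out any of the 6 arrays gave 36 to 40 called genes. These and the later adjusted p-values are from limma with Benjamini-Hochberg adjustment over all 22180 genes.

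Hells, a chromatin remodelling helicase of replicating cells, differed most. Its levels were 4.42, 6.22 and 5.64 in the DTR Lgr5Hi samples, 7.26, 7.45 and 7.56 in Lgr5Lo, and 7.69, 8.02 and 7.59 in Lgr5Neg. Hells was thus low in each Lgr5Hi sample, with no overlap between Lgr5Hi and either other gate. It was 5.06-fold lower in Lgr5Hi than in Lgr5Neg cells (log2 difference -2.34, SE 0.33, adjusted p = 0.000291). At the other end stood Orc3 and Orc5, subunits of the origin recognition complex, each with a difference of -0.20 that was not called.

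**Figure D1:**
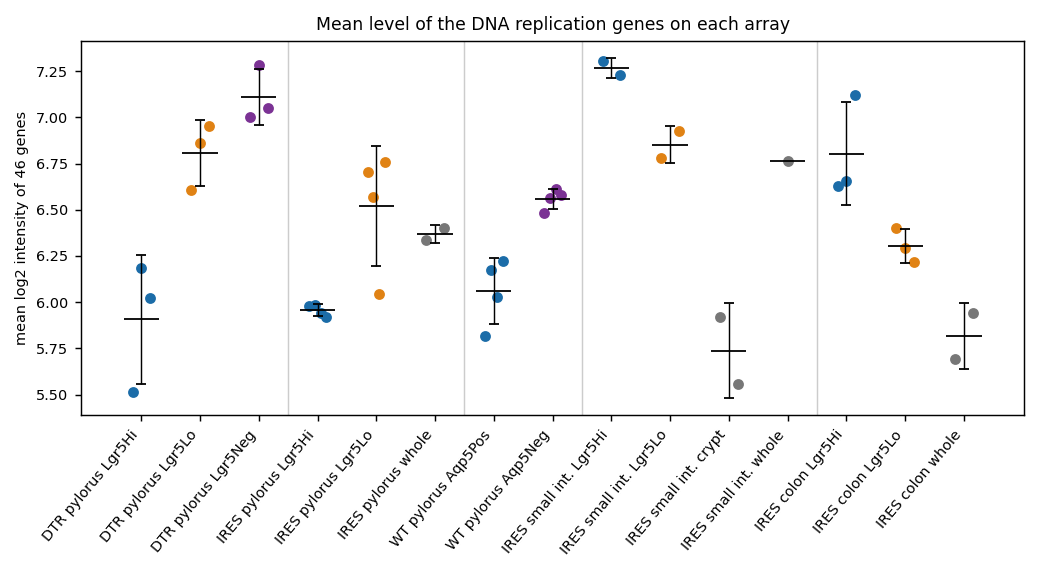
Mean log2 intensity of the 46 DNA replication genes on each array, by sample group. Points are arrays, horizontal bars group means and whiskers 1 SD; the 4 IRES pyloric Lgr5Hi arrays lie between 5.92 and 5.99, and the 2 small intestinal Lgr5Hi arrays at 7.23 and 7.31.

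Between the other DTR gates, 29 of 46 genes were lower in Lgr5Hi than in Lgr5Lo cells and 0 were higher, where 2.94% of all genes were lower and 2.02% higher. The median log2 difference was -0.94. Only Rpa3, the small subunit of the single-strand binding protein RPA, was lower in Lgr5Lo than in Lgr5Neg cells (log2 difference -1.04, adjusted p = 0.0116), where 0.631% of all genes were lower and 1.57% higher. The median there was -0.26, and 44 of 46 genes had a negative difference, for which the share of all genes is not given here. The 3 DTR comparisons share arrays and are not independent. The count of 29 became 9 without Lgr5Lo replicate 3, 14 without Lgr5Lo replicate 2 and 19 without Lgr5Hi replicate 1, and 7 in a single fit over all arrays. The call of Rpa3 was lost without Lgr5Lo replicate 1, Lgr5Neg replicate 2 or Lgr5Neg replicate 3.

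Promoter sequence is shown for the genes at the ends of this range, because E2F and NF-Y sites are known features of replication gene promoters. RefSeq promoters on GRCm38.p6, each 250 bases before to 50 bases after a listed start site, were given for 38 of the 46 genes. The first listed promoter of a gene was used, and 7 of the 38 genes had several. A listed start site can lie inside the gene, as for Hells, which is annotated from base 38930262. The E2F words searched were TTCCCGC, the word TTGGCGC, the word TTGCCGC and the word TTCGCGC, and the NF-Y word was CCAAT, each on both strands. Capitals mark these words or their reverse complements in the sequences, which read 5' to 3' along the gene's strand, and words can overlap. Among genes with a promoter given, Hells and Orc2 are the called genes with the largest and the smallest difference between DTR Lgr5Hi and Lgr5Neg cells. Pold3 and Orc5 are the genes not called with the largest and the smallest.
Hells, chr19:38930740-38931039 (plus strand): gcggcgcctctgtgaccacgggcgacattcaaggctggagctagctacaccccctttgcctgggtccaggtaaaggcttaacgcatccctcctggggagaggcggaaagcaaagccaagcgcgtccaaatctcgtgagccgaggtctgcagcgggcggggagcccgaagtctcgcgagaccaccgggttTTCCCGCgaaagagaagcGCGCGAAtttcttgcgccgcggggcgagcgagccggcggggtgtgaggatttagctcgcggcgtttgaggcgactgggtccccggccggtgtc
Orc2, chr1:58505060-58505359 (minus strand): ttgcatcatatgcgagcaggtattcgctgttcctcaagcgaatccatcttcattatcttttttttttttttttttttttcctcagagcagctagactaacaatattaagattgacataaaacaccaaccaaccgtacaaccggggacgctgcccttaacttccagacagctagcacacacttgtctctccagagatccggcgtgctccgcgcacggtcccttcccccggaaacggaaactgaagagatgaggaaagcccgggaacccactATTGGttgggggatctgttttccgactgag
Pold3, chr7:100121453-100121752 (minus strand): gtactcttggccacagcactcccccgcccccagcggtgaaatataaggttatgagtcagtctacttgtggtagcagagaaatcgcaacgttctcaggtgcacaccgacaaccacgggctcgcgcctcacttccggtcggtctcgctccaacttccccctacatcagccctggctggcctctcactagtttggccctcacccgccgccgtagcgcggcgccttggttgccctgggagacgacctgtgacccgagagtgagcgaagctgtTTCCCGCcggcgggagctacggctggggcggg
Orc5, chr5:22550289-22550588 (minus strand): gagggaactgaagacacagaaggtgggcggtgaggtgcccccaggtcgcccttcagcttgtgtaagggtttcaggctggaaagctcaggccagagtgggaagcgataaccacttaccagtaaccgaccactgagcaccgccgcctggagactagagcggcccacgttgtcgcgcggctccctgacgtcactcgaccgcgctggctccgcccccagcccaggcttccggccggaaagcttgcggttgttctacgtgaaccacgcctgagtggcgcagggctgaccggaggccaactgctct
The promoters of Mcm6 and Mcm3 were chosen after their values were seen. Mcm6 is the MCM subunit with the most E2F words, and Mcm3 the first listed of 3 subunits, with Mcm5 and Mcm7, that hold 3 words each.
Mcm6, chr1:128359656-128359955 (minus strand): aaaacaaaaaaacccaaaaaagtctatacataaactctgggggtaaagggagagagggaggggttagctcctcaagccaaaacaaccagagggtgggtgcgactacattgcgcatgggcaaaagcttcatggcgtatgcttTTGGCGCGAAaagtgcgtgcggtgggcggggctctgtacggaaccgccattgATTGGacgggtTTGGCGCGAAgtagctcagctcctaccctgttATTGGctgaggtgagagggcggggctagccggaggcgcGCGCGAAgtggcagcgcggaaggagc
Mcm3, chr1:20820263-20820562 (minus strand): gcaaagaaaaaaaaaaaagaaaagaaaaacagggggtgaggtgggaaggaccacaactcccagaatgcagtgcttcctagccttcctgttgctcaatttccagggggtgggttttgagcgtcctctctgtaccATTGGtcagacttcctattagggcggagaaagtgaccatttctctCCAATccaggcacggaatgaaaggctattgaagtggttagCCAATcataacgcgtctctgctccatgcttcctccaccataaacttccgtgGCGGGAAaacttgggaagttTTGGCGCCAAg
The Mcm6 promoter held 5 E2F words, some of which overlap, and 2 CCAAT words. Hells held 2 E2F words, Pold3 held 1, and Orc2 and Orc5 none.

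Across the 38 promoters, 22 (57.9%) held an E2F word, against 12.2% of 16918 genes with a promoter and a probe set of their own. A CCAAT word was in 24 (63.2%), against 38.4%. Of the MCM promoters 4 of 5 held at least 2 E2F words and 5 of 5 a CCAAT word, whereas 2 of 6 promoters of origin recognition genes held an E2F word. These counts take the first listed promoter, and Orc4, Fen1 and Lig1 held an E2F word only in another listed promoter. Genes lower in DTR Lgr5Hi cells had an E2F word in 19 of 34 promoters, and genes not called in 3 of 4. A CCAAT word was in 24 of 34 promoters of the former and in 0 of 4 of the latter. The median GC content was 60.6% in the 38 promoters and 56.3% in the larger set. These are matches of letters, not sites shown to be bound.

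Licensing genes differed in how far they followed the gates. Orc1, the largest origin recognition subunit, had levels of 3.69, 4.05 and 3.83 in DTR Lgr5Hi, 4.56, 4.91 and 4.98 in Lgr5Lo, and 5.17, 5.14 and 5.42 in Lgr5Neg samples. Each gate of Orc1 was separate from the next, and Lgr5Hi was lower than Lgr5Neg (log2 difference -1.39) and Lgr5Lo (-0.96). Orc2, Orc4 and Orc6 were lower in Lgr5Hi than in Lgr5Neg cells as well, by -0.66, -0.85 and -1.24, but were not called against Lgr5Lo cells. Orc3 ranged from 6.53 to 6.81 in Lgr5Hi, 6.70 to 6.89 in Lgr5Lo and 6.68 to 7.07 in Lgr5Neg samples, and these ranges overlap. Orc5 ranged from 5.52 to 5.66, 5.58 to 5.66 and 5.66 to 5.84. Orc3, Orc5 and Pold3 were called in none of the 16 comparisons as fitted here, and the group means of Orc3 spanned 0.60 across all 15 groups. Cdc6, which loads MCM rings, had levels of 4.54, 5.12 and 5.12 in Lgr5Hi, 5.89, 6.04 and 6.10 in Lgr5Lo, and 6.37, 6.46 and 5.87 in Lgr5Neg samples. Cdc6 was lower in Lgr5Hi than in Lgr5Neg cells by -1.31, and Cdt1, its partner in loading, by -0.98.

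All 6 subunits of the MCM2 to MCM7 ring were lower in DTR Lgr5Hi than in Lgr5Neg cells, with differences from -1.79 to -1.37, and than in Lgr5Lo cells, with differences from -1.61 to -1.16. Mcm5 had levels of 4.59, 5.62 and 5.19 in Lgr5Hi, 6.60, 6.84 and 6.79 in Lgr5Lo, and 6.67, 7.00 and 6.94 in Lgr5Neg samples. The Lgr5Lo and Lgr5Neg samples of Mcm5 overlap, and both lie above all Lgr5Hi samples. Mcm5 was 3.33-fold lower in Lgr5Hi than in Lgr5Neg cells (SE of the log2 difference 0.22, adjusted p = 0.000118). In these 2 comparisons 4 of 6 and 1 of 6 origin recognition subunits were called.

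Of the genes that activate the helicase, 5 of 6 were lower in DTR Lgr5Hi than in Lgr5Neg cells. Mcm10, an initiation factor, had levels of 4.54, 4.80 and 4.95 in Lgr5Hi, 5.65, 6.13 and 6.29 in Lgr5Lo, and 6.58, 6.57 and 6.44 in Lgr5Neg samples. The 3 gates of Mcm10 did not overlap, and Lgr5Hi was 3.40-fold lower than Lgr5Neg. The GINS subunits differed among themselves: Gins1 by -1.93, Gins2 by -1.04, Gins3 by -0.82, and Gins4 by -0.58, which was not called. Cdc45, the partner of GINS in the helicase, differed by -1.24.

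The 4 genes of polymerase alpha and primase, Pola1, Pola2, Prim1 and Prim2, were lower in DTR Lgr5Hi than in Lgr5Neg cells by -1.18 to -1.81. Prim1, the catalytic primase subunit, had levels of 5.99, 6.27 and 6.29 in Lgr5Hi, 6.67, 7.41 and 7.60 in Lgr5Lo, and 7.61, 8.26 and 8.12 in Lgr5Neg samples, with no overlap between gates. Among the genes of polymerases delta and epsilon, 3 of 5 were called. Pole2, a polymerase epsilon subunit, had levels of 3.67, 4.71 and 4.02 in Lgr5Hi, 5.49, 5.63 and 5.71 in Lgr5Lo, and 5.69, 6.33 and 6.22 in Lgr5Neg samples. Pole2 in Lgr5Hi cells lay below both other gates in every sample and was 3.87-fold lower than in Lgr5Neg cells. The catalytic subunit Pole and the delta subunit Pold2 were lower by -1.49 and -0.92, and the catalytic delta subunit Pold1 differed by -0.32, which was not called.

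Pold3, an accessory subunit of polymerase delta that also serves in DNA repair, stood apart from the rest. Its levels were 7.79, 7.81 and 7.90 in DTR Lgr5Hi, 7.97, 7.62 and 7.69 in Lgr5Lo, and 7.54, 7.45 and 7.12 in Lgr5Neg samples. The Lgr5Hi samples of Pold3 were all above the Lgr5Neg samples, the only such gene of the 46, where 16.2% of all genes showed that separation. The difference of 0.46 was not called (adjusted p = 0.0521), but it was called higher in 4 of 14 other settings, with 0.0238 as the lowest adjusted p. These were eBayes with trend and robust options, dim genes left out, quantile normalization, and Lgr5Neg replicate 1 left out. It was 0.83 between IRES pyloric Lgr5Hi and Lgr5Lo cells and 0.51 between Aqp5Pos and Aqp5Neg cells, also not called. IRES pyloric Lgr5Lo replicate 3 was low for Pold3, at 5.12, where the other replicates were at 7.64, 7.03 and 6.98.

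Pcna, the sliding clamp, had levels of 9.16, 9.66 and 9.54 in DTR Lgr5Hi, 9.96, 10.17 and 10.45 in Lgr5Lo, and 10.30, 10.65 and 10.48 in Lgr5Neg samples. Pcna was lower in Lgr5Hi than in both other gates, by -1.02 and -0.74 (adjusted p for the second = 0.0277). All 5 measured genes of this class were lower in Lgr5Hi than in Lgr5Neg cells, with Rfc1, Rfc2, Rfc3 and Rfc5, which load the clamp, at -0.65 to -0.97. Lig1, the ligase that seals Okazaki fragments, had levels of 6.07, 7.17 and 6.96 in Lgr5Hi, 7.64, 7.78 and 8.03 in Lgr5Lo, and 7.98, 8.46 and 8.17 in Lgr5Neg samples. Lig1 and Fen1, the nuclease that trims those fragments, were lower in Lgr5Hi than in Lgr5Neg cells by -1.47 and -0.77.

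Rpa3 had levels of 6.68, 6.96 and 6.67 in DTR Lgr5Hi, 7.42, 7.92 and 7.48 in Lgr5Lo, and 8.28, 8.89 and 8.76 in Lgr5Neg samples. The 3 gates of Rpa3 were stepped without overlap, and it was called in all 3 DTR comparisons. The other subunits Rpa1 and Rpa2 were lower in Lgr5Hi than in Lgr5Neg cells by -0.71 and -1.04. Rrm2, the regulated subunit of ribonucleotide reductase, which makes deoxynucleotides, had levels of 6.69, 7.75 and 7.68 in Lgr5Hi, 8.80, 8.82 and 8.92 in Lgr5Lo, and 9.22, 9.44 and 9.54 in Lgr5Neg samples. Rrm2 was 4.08-fold lower in Lgr5Hi than in Lgr5Neg cells (adjusted p = 5.77e-05), again with no overlap. Its partner Rrm1 and the thymidylate synthase Tyms were lower by -1.50 and -1.14. Tipin, a fork protection factor, had levels of 5.00, 5.97 and 5.73 in Lgr5Hi, 6.32, 6.83 and 6.87 in Lgr5Lo, and 7.17, 7.46 and 7.19 in Lgr5Neg samples. Tipin was lower in Lgr5Hi than in Lgr5Neg cells by -1.71, Uhrf1, which helps copy DNA methylation, by -1.87, and Slbp, which binds histone mRNA, by -0.97.

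**Figure D2:**
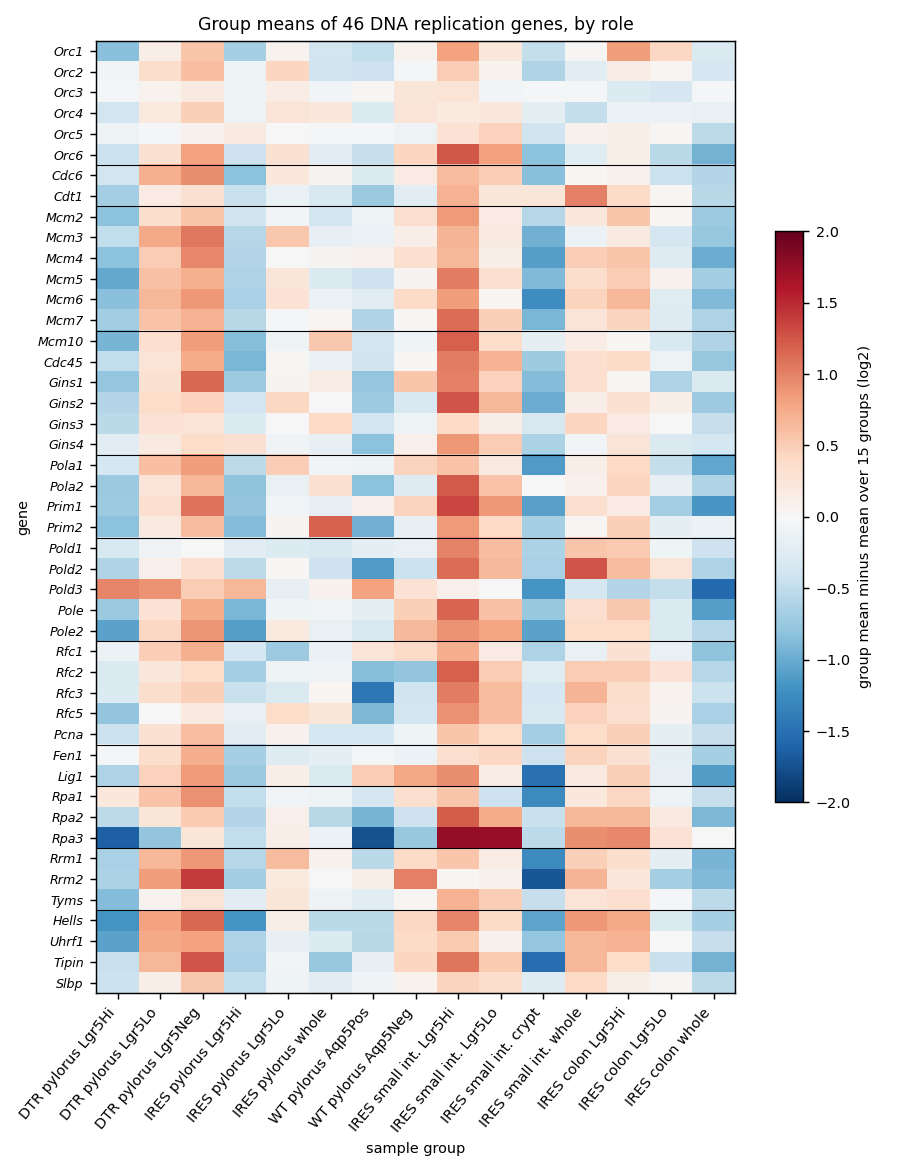
Group mean of each of the 46 genes minus its mean over the 15 groups (log2), with genes in rows by role and groups in columns. The pyloric Lgr5Hi columns are mostly blue (lower), the small intestinal Lgr5Hi column mostly red (higher), and Pold3 runs the other way.

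The IRES line addressed the same contrast in a second reporter. Averaged over the 46 genes, the IRES pyloric Lgr5Hi samples had levels of 5.98, 5.99, 5.94 and 5.92, and the Lgr5Lo samples 6.70, 6.57, 6.05 and 6.76. All 4 Lgr5Hi samples lay below all 4 Lgr5Lo samples, with Lgr5Lo replicate 3 close to them. Here 7 of 46 genes were lower in Lgr5Hi cells and 0 higher, where 0.884% of all genes were lower and 0.604% higher, and the median log2 difference was -0.59. In 12 genes the groups did not overlap with Lgr5Hi lower, as in 2.95% of all genes. The count was 2 without Lgr5Lo replicate 1, 3 without Lgr5Lo replicate 4 or Lgr5Hi replicate 4, 4 without Lgr5Lo replicate 2, and 12 without Lgr5Lo replicate 3. It was also 2 with only the compared groups in the fit and 3 with arrays centred on the median.

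The 7 genes were Pole2, Hells, Rrm1, Mcm3, Pola1, Mcm6 and Gins1, with log2 differences from -1.30 to -0.79. Pole2 had levels of 4.04, 4.04, 4.49 and 3.79 in IRES pyloric Lgr5Hi samples and 4.98, 5.63, 5.60 and 5.34 in Lgr5Lo samples. The groups did not overlap, and Pole2 was 2.45-fold lower in Lgr5Hi cells (SE of the log2 difference 0.21, adjusted p = 0.00311). Hells had levels of 5.62, 6.02, 5.11 and 5.03 in Lgr5Hi and 6.77, 7.54, 5.69 and 6.94 in Lgr5Lo samples, which overlap through Lgr5Lo replicate 3. Rrm1 was lower by -1.20 (adjusted p = 0.003), Mcm3 by -1.11, Pola1 by -1.01, Mcm6 by -0.93 and Gins1 by -0.79.

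Aqp5Pos cells of wildtype pylorus, sorted without a reporter, had mean levels of 5.82, 6.17, 6.03 and 6.22 over the 46 genes, and Aqp5Neg cells 6.48, 6.57, 6.61 and 6.58. All Aqp5Pos samples lay below all Aqp5Neg samples. In single genes 4 of 46 were lower in Aqp5Pos cells and 0 higher, where 2.25% of all genes were lower and 0.546% higher, and the median log2 difference was -0.53. In 15 genes the groups did not overlap with Aqp5Pos lower, as in 6.68% of all genes. The 4 called genes were Rpa3 (-0.99), Pole2 (-0.95), Rrm2 (-0.90) and Orc6 (-0.89). Pole2 had levels of 4.69, 4.62, 5.10 and 5.15 in Aqp5Pos and 5.91, 5.71, 5.71 and 6.03 in Aqp5Neg samples, with no overlap (adjusted p = 0.0182). Pole2 was the only gene of the 46 called lower in the DTR Lgr5Hi to Lgr5Neg, the IRES pyloric and the Aqp5 comparison alike. The count of 4 was 0 without Aqp5Neg replicate 1, 3 or 4, 1 without Aqp5Neg replicate 2, 2 without Aqp5Pos replicate 3 and 8 without Aqp5Pos replicate 4. Quantile normalization and the mean of probe sets each gave 2, and a single fit over all arrays 7.

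**Figure D3:**
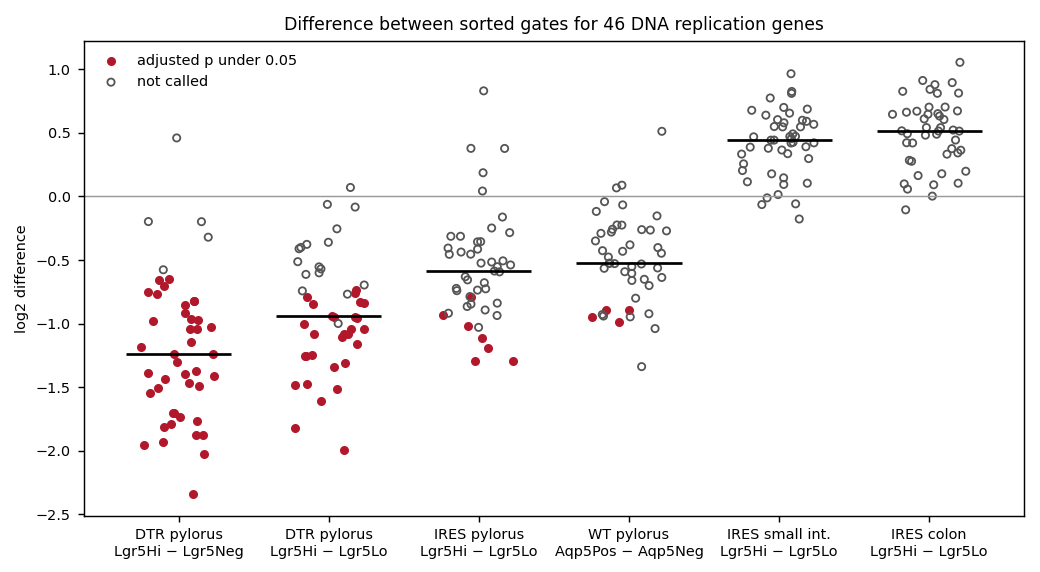
Log2 difference between sorted gates for each of the 46 genes (points, with black bars at the median) in 6 comparisons; filled points have an adjusted p under 0.05. Medians are -1.24, -0.94, -0.59 and -0.53 in the 4 pyloric comparisons and 0.44 and 0.52 in the small intestine and colon.

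In the intestine the same gates pointed the other way, without calls in single genes. Small intestinal Lgr5Hi samples had mean levels of 7.31 and 7.23 over the 46 genes and Lgr5Lo samples 6.78 and 6.93. No gene of the 46 was called by limma, where 0.104% of all genes were lower and 0.0812% higher, and 3 had an unadjusted p under 0.05. The median log2 difference was 0.44, 42 of 46 genes had a positive difference, and 31 did not overlap with Lgr5Hi higher, a separation that 19.7% of all genes showed with 2 samples a group. Colonic Lgr5Hi samples had mean levels of 6.63, 6.66 and 7.12, and Lgr5Lo samples 6.40, 6.29 and 6.22. Again no gene was called by limma, of the 46 or of all genes (0%), and 15 of the 46 had an unadjusted p under 0.05. The median was 0.52, 45 of 46 differences were positive, and 24 genes did not overlap with Lgr5Hi higher, where 7.06% of all genes did so. Hells, for example, had levels of 7.56, 7.20 and 7.39 in colonic Lgr5Hi and 6.62, 6.43 and 5.93 in Lgr5Lo samples, a difference of 1.05 with no overlap. For both organs, the shares of all genes with a positive difference or an unadjusted p under 0.05 are not given here.

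Whether the step from Lgr5Lo to Lgr5Hi differed between organs was tested as a difference of differences within the IRES line. Against the colon, the pyloric step was lower for 6 of 46 genes and higher for 0, where 0.189% of all genes were lower and 0.0361% higher, and the median was -1.15. The genes were Hells (-2.35, SE 0.46, adjusted p = 0.0295), Pole2 (-1.94), Pola1 (-1.89), Mcm6 (-1.84), Rrm1 (-1.74) and Gins1 (-1.42). Mcm6 shows the pattern: its pyloric samples were 7.47, 7.78, 7.02 and 7.34 in Lgr5Hi and 8.36, 8.59, 7.93 and 8.45 in Lgr5Lo, and its colonic samples 8.55, 8.43 and 9.18 in Lgr5Hi and 8.04, 7.81 and 7.58 in Lgr5Lo. In the pylorus Mcm6 was lower in Lgr5Hi cells and in the colon its Lgr5Hi samples were the higher ones, without overlap in either organ. The count of 6 was 0 without colonic Lgr5Hi replicate 3 or colonic Lgr5Lo replicate 3, 1 without colonic Lgr5Lo replicate 2, 3 without colonic Lgr5Hi replicate 1, pyloric Lgr5Hi replicate 4 or pyloric Lgr5Lo replicate 4, and 14 without pyloric Lgr5Lo replicate 3. It was 10 in a single fit over all arrays and 3 with arrays centred on the median. Against the small intestine, limma called 0 of 46 genes (0.00902% of all genes were lower and 0.0225% higher). The called count was 3 without pyloric Lgr5Lo replicate 3 and 1 in a single fit over all arrays. The median was -1.14, and 24 genes had an unadjusted p under 0.05, for which the share of all genes is not given here.

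**Figure D4:**
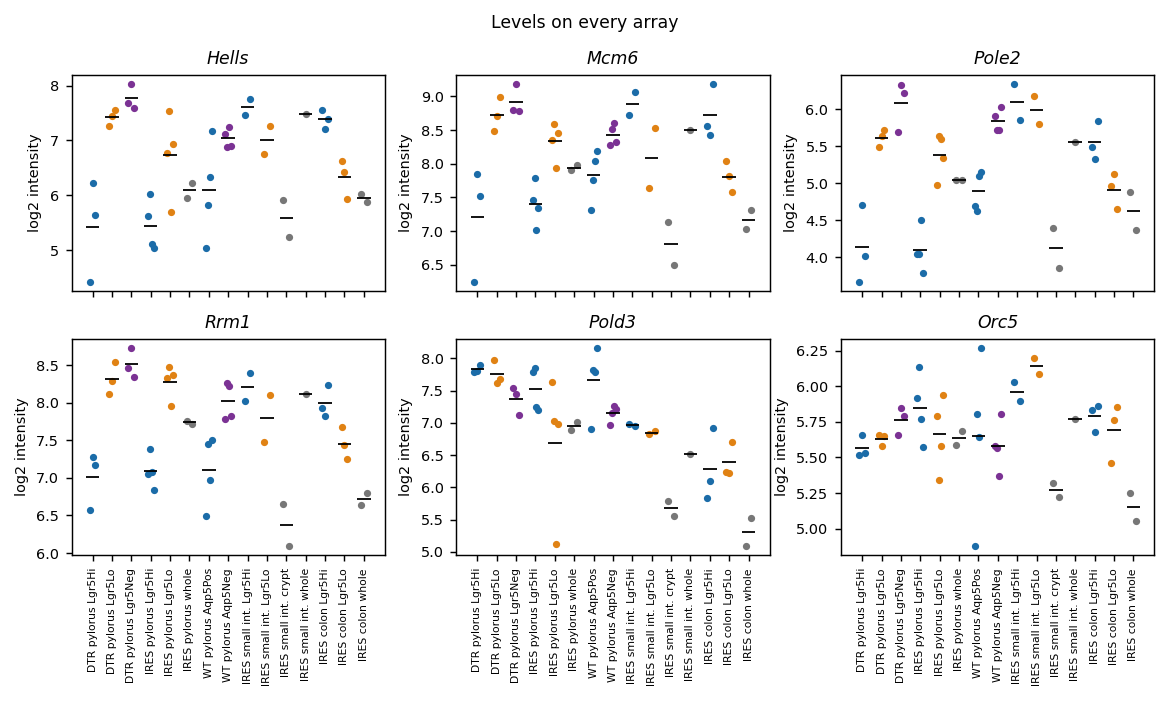
Log2 intensity of Hells, Mcm6, Pole2, Rrm1, Pold3 and Orc5 on every array, by sample group, with black bars at the group means. Blue points are Lgr5Hi or Aqp5Pos, orange Lgr5Lo, purple Lgr5Neg or Aqp5Neg and grey whole or crypt samples; for Mcm6 the IRES pyloric Lgr5Hi arrays lie between 7.02 and 7.78 and the colonic ones between 8.43 and 9.18.

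Lgr5Hi cells were then compared between organs. In pyloric Lgr5Hi cells 35 of 46 genes were lower than in small intestinal Lgr5Hi cells and 0 were higher, where 7.74% of all genes were lower and 4.67% higher, with a median of -1.36. Against colonic Lgr5Hi cells 18 were lower and 0 higher, where 4.22% of all genes were lower and 2.9% higher, with a median of -0.92. The whole MCM ring was lower against the small intestine (6 of 6 genes, -1.25 to -1.67), and 2 of 6 subunits, Mcm5 and Mcm6, against the colon. Rpa3 differed most from the small intestine, with 7.86, 7.87, 7.99 and 7.91 in pyloric and 10.57 and 9.73 in small intestinal Lgr5Hi samples, 4.74-fold lower (adjusted p = 1.73e-05). Hells differed most from the colon, with 3.83-fold lower levels in pyloric cells (adjusted p = 0.000374). Next came Hells (-2.16), Prim1 (-2.12), Pole (-2.09) and Mcm10 (-2.04) against the small intestine, and Orc1 (-1.50), Pole2 (-1.47) and Pole (-1.46) against the colon. Pold3 differed from the colon by 1.24, which was not called (adjusted p = 0.0551) but was called higher in 6 of 16 other settings. These were the fits over all arrays and over the compared groups, dim genes left out, quantile normalization, whole colon replicate 1 left out and colonic Lgr5Hi replicate 3 left out. The count of 35 was 20 without either small intestinal Lgr5Hi sample, and the count of 18 was 6 without colonic Lgr5Hi replicate 3.

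Between Lgr5Hi cells of small intestine and colon the median log2 difference over the 46 genes was 0.48. Both small intestinal array means, 7.31 and 7.23, lay above the colonic ones of 6.63, 6.66 and 7.12. Only 1 gene was called, Gins1, which was higher in the small intestine (log2 difference 1.00, adjusted p = 0.0314), where 1.32% of all genes were higher and 1.28% lower. That call was lost without either small intestinal Lgr5Hi sample, without colonic Lgr5Hi replicate 1 or 2, with quantile normalization, and in fits over all arrays, the compared groups or the sorted arrays. Lgr5Lo cells differed little between organs in these genes. Pyloric Lgr5Lo cells were lower than small intestinal ones for 3 genes, Rpa3 (-1.60), Rfc3 (-0.92) and Pold1 (-0.89), where 4.43% of all genes were lower and 3.74% higher, and the median was -0.32. That count was 0 without small intestinal Lgr5Lo replicate 1, and 1 without small intestinal Lgr5Lo replicate 2, without pyloric Lgr5Lo replicate 2, with quantile normalization or with only the compared groups. They were higher than colonic ones for 2 genes, Pola1 (0.97) and Rrm1 (0.83), where 2.57% of all genes were higher and 3.78% lower, and the median was 0.24. That count was 0 without colonic Lgr5Lo replicate 3 and 1 without colonic Lgr5Lo replicate 2, with only the compared groups or with median centring. These organ comparisons share the Lgr5Hi and Lgr5Lo arrays with the gate comparisons above.

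The samples of small intestine titled crypt had the lowest mean level of the 15 groups, at 5.92 and 5.56 over the 46 genes. Their group mean of 5.74 (SD 0.26) was close to the 5.82 of whole colon. It was below the 6.76 of the 1 array titled whole small intestine. Crypt replicate 1 lay above single arrays of other groups, such as DTR Lgr5Hi replicate 1 at 5.52. In the crypt samples 35 of 46 genes were lower than in small intestinal Lgr5Hi cells and 0 higher, where 6.97% of all genes were lower and 6.47% higher. All 46 differences were negative, with a median of -1.57, and the share of all genes with a negative difference is not given here. Tipin differed most, with 4.90 and 4.07 in crypt and 7.32 and 6.86 in Lgr5Hi samples, a 6.08-fold difference (adjusted p = 0.00203). Prim1 (-2.43), Lig1 (-2.42), Rpa3 (-2.27) and Gins2 (-2.26) followed. The enterocyte markers Alpi, Apoa4 and Sis were higher on the same arrays, 3 of 5 of their list, by 3.31 to 4.96, and the part of these cells in the result was not tested. The count of 35 was 15 without crypt replicate 2 and 17 without Lgr5Hi replicate 1.

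Sorted pyloric Lgr5Hi cells were lower than whole pylorus for 4 genes and higher for 0, where 4.32% of all genes were lower and 1.65% higher, with a median of -0.39. The genes were Prim2 (-2.04), Mcm10 (-1.38), Pole2 (-0.95) and Gins1 (-0.88). The count was 0 without whole pylorus replicate 2, 1 without whole pylorus replicate 1 and 2 without any of the 4 Lgr5Hi samples or with quantile normalization.

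Over the 15 groups, 22 of the 46 genes had their highest mean in small intestinal Lgr5Hi cells and 17 in DTR Lgr5Neg cells. The lowest mean was in pyloric Lgr5Hi or Aqp5Pos cells for 21 genes and in the small intestinal samples titled crypt for 16. These ranks cross mouse lines, which the reported fits kept apart. They include the whole colon group, whose first array was high in gastric markers, and the crypt arrays, which were high in enterocyte markers. In 38 genes the difference was negative in the DTR Lgr5Hi to Lgr5Neg, the IRES pyloric and the Aqp5 comparison and positive in both intestinal gate comparisons. The share of all genes with this pattern was not counted. Lgr5Hi cells were set against Lgr5Neg cells in the DTR line and against Lgr5Lo cells in the IRES line. Group means spanned 3.50 for Rpa3 and 3.10 for Rrm2, the widest, and 0.60 for Orc3, the narrowest.

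Other replication genes, 40 measured in 4 lists that exclude the 46, ran with them. In DTR Lgr5Hi cells 28 of 40 were lower than in Lgr5Neg cells and 17 lower than in Lgr5Lo cells, where 9.48% and 2.94% of all genes were lower. They were led by Wdhd1, a fork adaptor (-1.98), Ticrr, which fires origins (-1.63), Dut, which removes dUTP (-1.13), and Ccna2, an S-phase cyclin (-1.52). The count was 3 in the IRES pyloric gates and 5 in the Aqp5 gates, where 0.884% and 2.25% of all genes were lower. It was 0 in both intestinal gate comparisons, where 0.104% of all genes were lower in the small intestine and 0% in the colon. Genes of mitosis were lower as well: 11 of 11 in DTR Lgr5Hi against Lgr5Neg cells, with Birc5 at -1.95 and Kif11 at -1.69, 5 of 11 in the IRES pyloric gates and 3 of 11 in the Aqp5 gates. The shares of all genes lower in these comparisons were 9.48%, 0.884% and 2.25%.

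Markers of other cell types moved with the pyloric gates. For the counts below, 9.48% of all genes were lower and 8.84% higher between DTR Lgr5Hi and Lgr5Neg cells. The shares were 2.25% and 0.546% in the Aqp5 gates and 0.884% and 0.604% in the IRES pyloric gates. The 5 surface pit cell markers were lower in DTR Lgr5Hi cells than in Lgr5Neg cells (5 of 5), with array means of their list from 7.34 to 8.21 and from 11.74 to 12.00. They were lower in Aqp5Pos cells too (5 of 5), with array means from 10.02 to 11.00 against 12.00 to 12.11. In the IRES pyloric gates 0 of 5 were called, with array means from 10.47 to 12.02 in Lgr5Hi and from 12.12 to 12.43 in Lgr5Lo samples. Other lists separated in those gates with 0 or 1 member called. Gland mucous array means ran from 11.56 to 12.05 in Lgr5Hi and from 10.25 to 11.19 in Lgr5Lo samples (0 of 3 called). Enterocyte array means ran from 4.74 to 6.15 and from 6.57 to 8.39 (0 of 5), enteroendocrine from 8.18 to 8.88 and from 9.29 to 10.21 (1 of 6 lower), and chief and parietal from 10.38 to 11.16 and from 11.39 to 11.88 (0 of 4). Of 6 tuft cell markers 5 were higher in DTR Lgr5Hi than in Lgr5Neg cells, with array means from 6.53 to 7.48 and from 5.33 to 6.19. In Aqp5Pos cells 5 were lower than in Aqp5Neg cells, with array means from 3.99 to 4.47 and from 5.64 to 6.03. In the IRES pyloric gates the tuft group mean was lower in Lgr5Hi (5.88) than in Lgr5Lo samples (7.09). The array means there, from 5.16 to 7.65 and from 6.39 to 7.60, overlapped. Of 3 gland mucous cell markers 2 were higher in both DTR Lgr5Hi and Aqp5Pos cells. Chief and parietal array means ran from 8.89 to 9.82 in DTR Lgr5Hi and from 6.82 to 7.56 in Lgr5Neg cells, with 2 of 4 markers higher, and 2 of 6 enteroendocrine markers were higher and 1 lower. In Aqp5Pos cells 1 of 4 chief and parietal markers was higher and 2 lower, and 1 of 6 enteroendocrine markers was lower. Of 5 enterocyte markers 2 and of 6 immune cell markers 2 were lower in DTR Lgr5Hi than in Lgr5Neg cells, and 0 of 6 stromal, 0 of 3 endothelial and 0 of 2 squamous markers were called. In the intestinal gates limma called 0 of 57 markers over all lists. An unadjusted p under 0.05 was found for 7 in the small intestine and 5 in the colon, given without the share over all genes. Enteroendocrine array means there were lower in Lgr5Hi samples without overlap. They ran from 7.01 to 7.27 against 8.38 to 8.78 in the small intestine and from 5.46 to 6.04 against 6.43 to 6.76 in the colon. Enterocyte array means of small intestine were 6.83 and 9.72 in Lgr5Hi and 10.17 and 10.65 in Lgr5Lo samples. The part of these cell types in the replication gene differences was not tested.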

How the data were processed

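Per the labels' protocols, pyloric glands were released by chelation, digested with TrypLE and sorted, with isothermal (SPIA) cDNA amplification before labelling and hybridisation to Affymetrix arrays. The deposited values are log2 intensities, made by the authors with RMA, per the submitters' processing notes, which also name R 3.2.3, limma 3.26.8, oligo and Partek without their role. No depth applies to arrays, and the number of arrays limits the precision.

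The table held 41345 probe sets on 42 arrays, with array medians from 3.82 to 4.25. Of these, 23521 carried 1 gene symbol, 1814 several and 16010 none, and the brightest single-symbol probe set stood for a gene. 5 of the 46 genes had several such probe sets (Pole, Fen1, Rpa1, Rpa3 and Rrm2). Groups follow the titles. For 9 arrays titled DTR another label field gives the IRES line; the title was followed.

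Each mouse model had its own limma fit (version 3.58.1, R 4.3.3) of group means, with eBayes and Benjamini-Hochberg adjustment. Calls required an adjusted p under 0.05. The fit was tested on simulated data. P-values measure the spread between samples labelled as biological replicates.

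The members and lists were chosen with earlier results of these data known. Genes were named by a rule: the gene of each role with the smallest p between DTR Lgr5Hi and Lgr5Neg, up to 10 called genes with the largest difference per comparison, those called in none, the 2 largest and 2 smallest differences, and up to 4 genes per other list. The text gives part of these.

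Equally numbered arrays were checked for pairing by correlating their deviations from group means over genes. In the IRES pylorus r was 0.104 to 0.296 and in the colon 0.136 to 0.242, so these were taken as paired. The reported fits and p-values did not use this pairing, which entered only through the replicate block as an alternative. The small intestine had 2 pairs, at 0.373, and the DTR (-0.112 to 0.154) and WT (-0.0232 to 0.165) arrays were taken as unpaired. Alternatives were the replicate block, other fits and scalings, a filter on dim genes, the mean of probe sets and leaving out each array.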

Additional observations from a re-analysis of the deposited data

Results flagged for a closer look

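In groups of 4 samples, a gene's extreme sample was set against the nearest other sample by the gap over the whole range, with Dixon's critical value for a group of 4. Of 188 such tests, on the 46 genes and on their mean in 4 groups, 8 exceeded it, where chance gives about 1 in 20. The ratio was 0.836 for Orc6 in IRES pyloric Lgr5Hi replicate 3, at 7.57 where the nearest sample was at 5.78. It was 0.919 for Rfc2 in IRES pyloric Lgr5Hi replicate 1, the lowest at 4.80. In IRES pyloric Lgr5Lo replicate 3 it was 0.852 for Mcm4, the lowest at 5.73, and 0.957 for Uhrf1, the lowest at 4.46. In Aqp5Pos replicate 1 it was 0.856 for Gins4 and 0.938 for Rfc1, both the lowest. It was 0.848 for Pcna in Aqp5Pos replicate 2 and 0.897 for Mcm2 in Aqp5Neg replicate 4, also the lowest.

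The step from Lgr5Lo to Lgr5Hi differed between pylorus and colon by limma's test of the difference of differences for 6 genes. The values were -1.84 for Mcm6 (adjusted p = 0.0288), -1.42 for Gins1 (0.0436), -1.89 for Pola1 (0.016), -1.94 for Pole2 (0.016), -1.74 for Rrm1 (0.016) and -2.35 for Hells (0.0295). All 6 calls were lost without colonic Lgr5Hi replicate 3 or colonic Lgr5Lo replicate 3.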

How the results depend on the processing

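Over the 16 comparisons and all settings tried, no called gene of the 46 reversed its direction. Settings that changed only the estimate of spread or the genes tested could not reverse one, since they keep the differences of group means. A reversal was possible only with other scalings, the mean of probe sets, an array left out, or the block where pairs were incomplete. Of 1612 recomputed gene results 1503 kept their side of the threshold and 109 lost it, and of 1135 with 1 array left out 839 kept it and 296 lost it. Pold3, not called as reported, was called higher in 4 of 14 settings for DTR Lgr5Hi against Lgr5Neg and in 6 of 16 for pyloric against colonic Lgr5Hi, and lower in 3 of 13 for the crypts, where Orc5 was called in 1 of 13. With the replicate number as a block, the number of called genes was 42 for DTR Lgr5Hi against Lgr5Neg, 35 against Lgr5Lo, 9 in the IRES pyloric gates, 0 in the small intestinal and colonic gates, 9 for the pylorus to colon difference of differences and 3 for the Aqp5 gates. The block moved the count by over 1.5 times only for DTR Lgr5Lo against Lgr5Neg, from 1 to 3, where a single fit over all arrays and the mean of probe sets each gave 0. A single fit over all arrays gave 7 for DTR Lgr5Hi against Lgr5Lo, 7 for the Aqp5 gates, 0 for small intestinal against colonic Lgr5Hi, and 1 and 10 for the differences of differences against small intestine and colon. With only the compared groups in the fit the count was 2 for the IRES pyloric gates, 0 for small intestinal against colonic Lgr5Hi, and 1 for pyloric Lgr5Lo against each intestinal organ. Quantile normalization gave 2 for the Aqp5 gates, 0 for small intestinal against colonic Lgr5Hi, 1 for pyloric against small intestinal Lgr5Lo and 2 for pyloric Lgr5Hi against whole pylorus. Median centring gave 3 for the IRES pyloric gates, 1 for pyloric against colonic Lgr5Lo and 3 for the pylorus to colon difference of differences, and the mean of probe sets 2 for the Aqp5 gates. Sorted arrays alone, a setting chosen after seeing the data, gave 0 for small intestinal against colonic Lgr5Hi. After quantile normalization the median difference over all genes between 2 compared groups was at most 0.07 in size.

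With each array left out in turn, counts ran from 36 to 40 for DTR Lgr5Hi against Lgr5Neg, 9 to 34 against Lgr5Lo, 0 to 1 for Lgr5Lo against Lgr5Neg, 2 to 12 for the IRES pyloric gates and 0 to 8 for the Aqp5 gates. They ran from 20 to 33 and 6 to 20 for pyloric Lgr5Hi against small intestine and colon, and from 0 to 1 for small intestinal against colonic Lgr5Hi. They ran from 0 to 3 for pyloric Lgr5Lo against each intestinal organ, 15 to 31 for the crypts, 0 to 2 for whole pylorus, and 0 to 3 and 0 to 14 for the differences of differences. Both intestinal gate comparisons stayed at 0. Where a group was left with 1 array, it was assumed to vary like the other groups of its fit.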
